A study of Mus musculus with 6 samples.

Results

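The 10 genes described here build the microvilli of the brush border and the links between them, and were chosen by name from the 22274 genes of the series: Vil1, Espn, Pls1, Eps8, Ezr, Myo1a, Cdhr2, Cdhr5, Ush1c and Myo7b. RNA came from epithelial cells of the mouse ileum, and 3 libraries were sequenced for each of 2 groups. The knockout group carried floxed Ogt alleles and Olfm4-CreER, a recombinase that tamoxifen activates in cells expressing the crypt stem cell gene Olfm4, and its label is Ogt intestinal stem cell-specific knockout. The control group has the genotype LoxP, so it carried floxed alleles, and its titles read Olfm4Ctrl. The labels do not say whether these mice also carried Olfm4-CreER. Mice aged 2 months received tamoxifen daily for 3 days, and the ileum was collected on day 10. The labels do not say separately whether control mice received it. If controls lacked Olfm4-CreER, effects of the recombinase cannot be told apart from those of losing Ogt. If they received no tamoxifen, neither can effects of the drug or of the activated recombinase. Ogt encodes the transferase that adds O-GlcNAc to nuclear and cytoplasmic proteins. The study's title links this enzyme to epithelial homeostasis and repair, and the comparison here asks whether transcripts of the apical actin cytoskeleton differ after its loss.

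Each microvillus of an absorptive enterocyte is a finger of plasma membrane around a bundle of parallel actin filaments. Villin (Vil1), espin (Espn) and plastin 1, also called fimbrin (Pls1), cross-link the filaments, and Eps8 sits at their growing ends at the tip. Ezrin (Ezr) and the motor myosin 1a (Myo1a) tie the membrane to the side of the bundle. At the tips, the protocadherin-like proteins Cdhr2 and Cdhr5 of neighbouring microvilli bind each other across the gap. The scaffold harmonin (Ush1c) and the motor myosin 7b (Myo7b) hold their tails inside the cell. These last proteins form the intermicrovillar adhesion complex, which packs microvilli closely during differentiation and resembles the Usher complex of sensory hair bundles.

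Ogt itself was lower in every knockout library, at 48.5, 43.0 and 36.0 CPM (counts scaled to library size with TMM factors) against 140, 127 and 128 CPM in controls 1 to 3 (-1.63 ± 0.13 on the log2 scale, adjusted p = 0.00121). Olfm4, whose promoter drives the recombinase, was at 83.5 ± 54.6 and 117 ± 77.3 CPM (mean ± SD, n = 3) and did not pass (adjusted p = 0.692). Library totals lay between 14389435 and 18076484 estimated counts. Pan-epithelial markers summed to between 11154 and 15639 CPM in control and between 10542 and 13043 CPM in knockout libraries, with Krt8 the most abundant. T cell markers summed to 146 to 189 CPM in control libraries and to 83.2, 177 and 146 CPM in knockouts 1 to 3, with knockout 1 lowest. Smooth muscle markers were at 747, 1859 and 1740 CPM in controls 1 to 3 and at 692, 924 and 1015 CPM in knockouts 1 to 3. Their median log2 fold change was -0.64, and 0 of them were called. Stromal markers summed to 274 to 382 CPM in control and 380 to 452 CPM in knockout libraries. Of these, 2 of 6 were called higher, where 9.33% of all tested genes were. Controls 1 and 2 each stood apart in some markers. In control 2, Olfm4 was at 20.4 CPM against 115 in each other control, and Paneth cell markers summed to 225 CPM against 2409 and 2063 CPM. Stem cell markers, at 164 CPM, and proliferating cell markers, at 281 CPM, were also lowest there among controls. Control 1 stood apart in enterocyte and goblet cell markers. Its 18 enterocyte markers summed to 34751 CPM against 51836 and 52971 CPM, and its goblet cell markers to 15954 CPM against 8568 and 6841 CPM. All 10 microvillus genes were also at their lowest control value in control 1. Calls and signs of these genes that change without control 1 are given with and without it. Nothing in the labels ties each library to its own mouse, so the p-values reflect variation among these libraries only, part of which may be technical. In such bulk samples, fewer cells of a type and less RNA per cell cannot be told apart.

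Before the values, the upstream windows of 3 members are shown: Vil1, the most abundant core gene, and Cdhr2 and Cdhr5, the adhesion partners whose ratio separated the groups. Each is the 250 bases before the RefSeq start site in build GRCm38.p6, read on the gene's strand. Promoter windows were found for 8 of the 10 genes, and 3 of them are for Espn, giving 10 windows in all. The windows were searched on both strands for letters bound by regulators of enterocyte genes: for HNF4 the letters CAAAGTCCA or CAAAGTTCA, and the CAAAGT that begins both; for CDX the letters TTTATG and the longer TTTATTG; the letters GTTAAT; for GATA factors AGATAA, for KLF factors CACCC, for the TATA box TATAAA, and for SRF the CArG box. Capitals mark matches other than CACCC, which 52.0% of all windows hold, among them 7 of the 10. A match is a description of the letters only.
Vil1, chr1:74409134-74409383, plus strand: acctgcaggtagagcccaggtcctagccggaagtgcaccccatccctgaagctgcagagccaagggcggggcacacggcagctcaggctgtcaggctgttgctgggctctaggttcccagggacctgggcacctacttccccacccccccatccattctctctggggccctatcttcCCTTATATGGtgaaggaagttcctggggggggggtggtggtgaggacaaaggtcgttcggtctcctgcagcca
Cdhr2, chr13:54701213-54701462, plus strand: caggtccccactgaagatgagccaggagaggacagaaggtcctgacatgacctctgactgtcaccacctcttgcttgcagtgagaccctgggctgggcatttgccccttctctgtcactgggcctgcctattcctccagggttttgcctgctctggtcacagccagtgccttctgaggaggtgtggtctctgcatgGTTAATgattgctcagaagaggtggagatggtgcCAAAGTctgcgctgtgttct
Cdhr5, chr7:141276787-141277036, minus strand: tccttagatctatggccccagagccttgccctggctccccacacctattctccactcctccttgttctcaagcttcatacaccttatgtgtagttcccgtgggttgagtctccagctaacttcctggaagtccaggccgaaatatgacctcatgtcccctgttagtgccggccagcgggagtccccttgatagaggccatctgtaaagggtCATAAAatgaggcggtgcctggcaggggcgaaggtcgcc
The CArG box of Vil1 begins 73 bases before the start site, and 1.47% of the 32851 RefSeq windows of this length hold such a box. No other of the 10 windows holds it. Cdhr2 holds GTTAAT 54 bases and CAAAGT 20 bases before its start, letters found in 6.43% and 12.6% of all windows. Cdhr5 holds TTTATG on the opposite strand, read as CATAAA, 39 bases before its start, as do 10.8% of all windows. Besides Cdhr5, TTTATG stood in 1 window of Espn. None of the 10 windows held either longer HNF4 motif, the longer CDX motif, the GATA motif or the TATA box.

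The microvillus genes were abundant in both groups and, with the exception of Myo7b, did not pass the test. Together they took between 1.14% and 1.52% of all counts in control libraries and between 1.41% and 1.68% in knockout libraries. By CPM they ranked between 26 (Vil1) and 1301 (Espn) among the 14005 tested genes. All 10 had enough counts to be tested, with at least 1684 in every library, and all of these counts were whole. Of the 10 genes, 1 fell and 0 rose (adjusted p under 0.05 over all tested genes, by the quasi-likelihood test of edgeR), or 10% of members, while 18.7% of all tested genes passed (9.37% lower and 9.33% higher). The count of 1 in 10 is near this background. Without control 1, 3 members fell (Myo7b, Espn and Cdhr2) and 0 rose, while 1933 of all genes were higher and 1372 lower. Without control 2, control 3, knockout 1 or knockout 3, 0 members passed, and fewer of all genes passed than in the full fit. In the full fit the share was 20.2% among the 1301 genes at least as abundant as Espn. The median log2 fold change of the members was -0.11, beside -0.05 over all tested genes. For all 10 genes the 95% interval of the fold change lay within a 2-fold change in either direction. Unadjusted p-values under 0.05 were found for 4 members, all lower in knockout libraries, and of these only Myo7b passed after adjustment. The share of all tested genes under this unadjusted cut was not computed, so no trend of the members is read from the count.

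**Figure D1:**
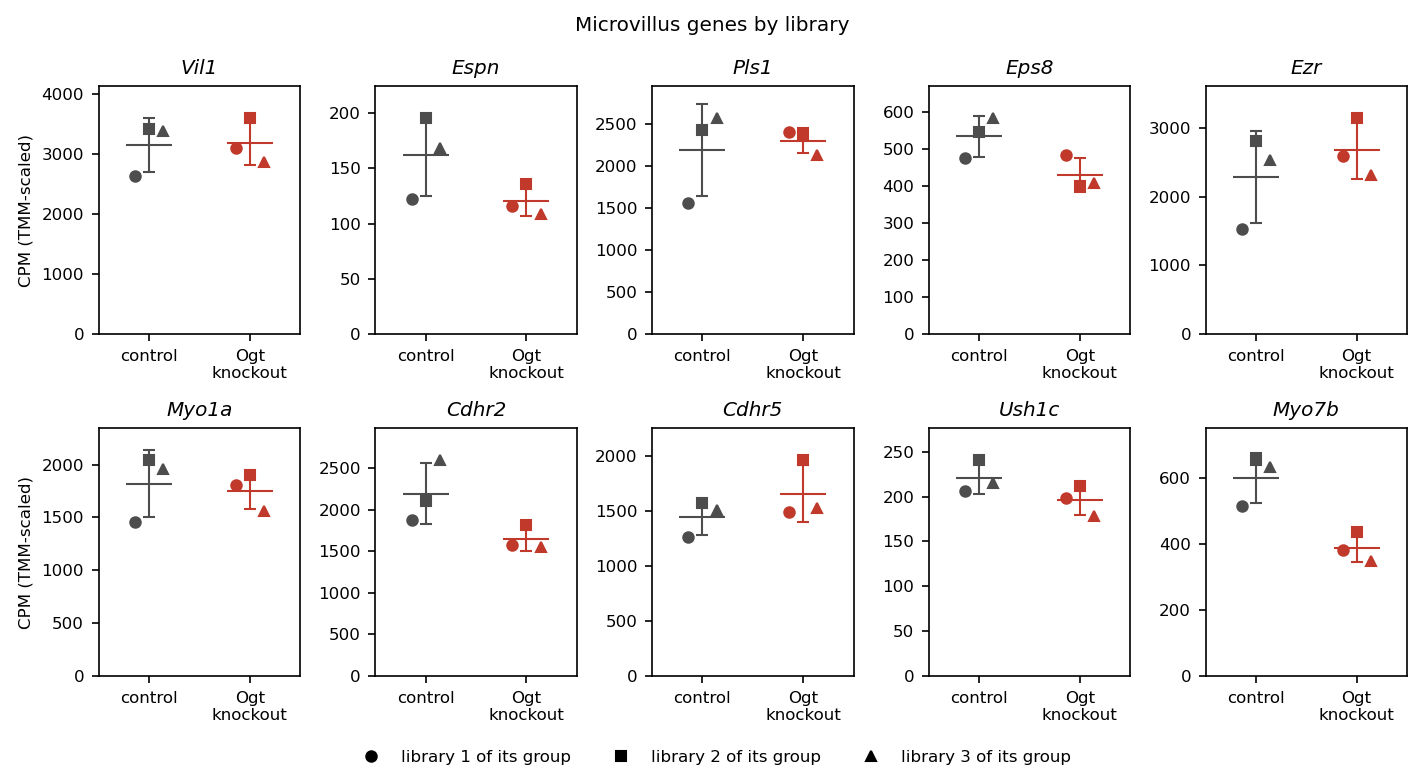
CPM (TMM-scaled, y axis from 0) of each of the 10 microvillus genes in the 3 control and 3 Ogt knockout libraries, with 1 symbol for each library, bars for the mean and whiskers for the SD. Control 1 (dark circle) is the lowest control in every panel, and the groups are apart for Cdhr2 and Myo7b only.

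No actin bundler passed, and Espn had the largest estimate among them, a negative one. Vil1 stood at 2634, 3417 and 3390 CPM in controls 1 to 3 and at 3102, 3594 and 2871 CPM in knockouts 1 to 3. Knockout 2 was above all controls and the others lay within the control range, and the difference on the log2 scale was 0.02 ± 0.17 (adjusted p = 0.948), where ± after a log2 fold change is its SE. Its interval ran from -0.37 to 0.41, or from 0.775 to 1.32 of the control level. Pls1 gave 1556, 2427 and 2562 CPM in control and 2394, 2366 and 2128 CPM in knockout libraries. Apart from the low control 1, these values were close to each other (0.07 ± 0.20, adjusted p = 0.826). The small positive estimates of Vil1 and Pls1 turned negative when control 1 was left out (-0.05 and -0.07), and that of Vil1 also without knockout 2. Espn, a potent bundler that is far less abundant, was at 122, 195 and 168 CPM in control and at 116, 136 and 109 CPM in knockout libraries. Controls 2 and 3 lay above every knockout library and control 1 lay among them (-0.43 ± 0.18, adjusted p = 0.129). Without control 1 the value for Espn was -0.55 and passed (adjusted p = 0.0192). Exons of Vil1 overlap those of Usp37 on the opposite strand in GENCODE M21, and the library kit does not mark strand, and Usp37 was at 84.0 to 110 CPM.

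Eps8, which caps and bundles filaments at microvillus tips, showed a difference of similar size. It was at 476, 546 and 584 CPM in control and at 483, 401 and 409 CPM in knockout libraries. Knockouts 2 and 3 were below all controls, while knockout 1 was just above control 1 (-0.31 ± 0.13, adjusted p = 0.139). Its interval ran from -0.62 to -0.01 on the log2 scale.

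The genes that link membrane and core were not called. Ezr was at 1532, 2805 and 2525 CPM in control and at 2591, 3137 and 2306 CPM in knockout libraries. It had the widest control range of the 10 genes, with the highest control 1.83 times the lowest, and an estimate of 0.23 ± 0.24 (adjusted p = 0.543). The interval for Ezr, from -0.32 to 0.78, reached up to 1.71 times the control level. Without control 1 the estimate was 0.05. Exons of Sytl3 overlap Ezr on the opposite strand, at 4.87 to 10.2 CPM. Myo1a gave 1456, 2040 and 1958 CPM in control and 1804, 1899 and 1557 CPM in knockout libraries. The groups overlapped (-0.05 ± 0.17, adjusted p = 0.853), and the sign of Myo1a changed with the scaling of the libraries.

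**Figure D2:**
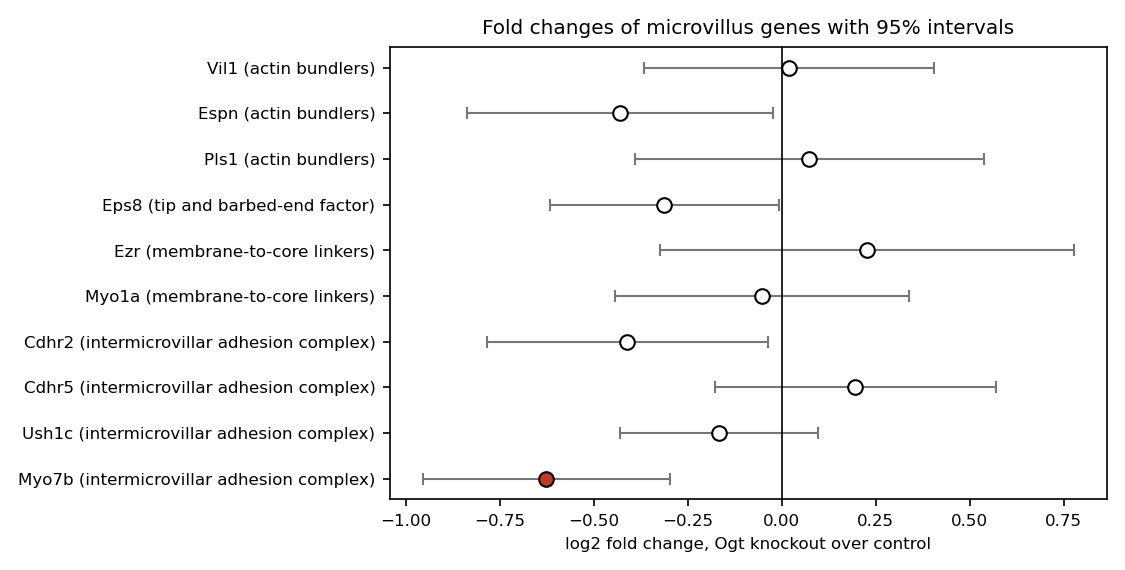
Log2 fold change of each microvillus gene (x axis, Ogt knockout over control, edgeR) with its 95% interval as a whisker; a filled point passed an adjusted p of 0.05. Only Myo7b is filled, at -0.63, and the intervals of Espn, Eps8 and Cdhr2 end just below 0.

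Of the members in the intermicrovillar adhesion complex only Myo7b passed, and differences between their estimates were not tested. Myo7b, the motor that carries the complex to the tips, was at 515, 654 and 636 CPM in control and at 383, 437 and 349 CPM in knockout libraries. All knockout values were below all control values, and Myo7b fell by 0.63 on the log2 scale (-0.63 ± 0.14, adjusted p = 0.0214). The interval ran from 0.516 to 0.814 of the control level. Leaving out control 2, control 3, knockout 1 or knockout 3 in turn took the adjusted p of Myo7b to 0.0641, 0.0769, 0.0676 and 0.0904, with estimates between -0.61 and -0.53, and it stayed below 0.05 without control 1 (0.00655) or knockout 2 (0.0481). Cdhr2 was at 1878, 2103 and 2596 CPM in control and at 1582, 1814 and 1552 CPM in knockout libraries. Its groups did not overlap either, although control 1 and knockout 2 were close, and the estimate of -0.41 ± 0.16 did not pass (adjusted p = 0.116). Without control 1 the value for Cdhr2 was -0.46 and passed (adjusted p = 0.0437). On the FPKM scale, which divides by transcript length and was used without TMM factors, the groups of Cdhr2 overlapped. The estimate for Cdhr2 was -0.27 with log2(FPKM + 0.1) and -0.27 with library size alone. In all, 2 of 10 members had CPM groups that did not overlap, both lower in knockout libraries and 0 higher, while 39.8% of all tested genes had such groups (20.2% lower and 19.6% higher).

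Cdhr5, the partner of Cdhr2 across the gap, was at 1264, 1576 and 1506 CPM in control and at 1491, 1961 and 1526 CPM in knockout libraries. Knockout 2 was above all controls and the others lay within their range (0.20 ± 0.16, adjusted p = 0.435). Ush1c gave 206, 240 and 215 CPM in control and 198, 212 and 179 CPM in knockout libraries, with overlapping groups (-0.17 ± 0.11, adjusted p = 0.341). Summed CPM of the 4 genes were 4463 ± 553 in control and 3895 ± 459 in knockout libraries (mean ± SD, n = 3), and these groups overlapped.

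Ratios between members within a library do not depend on how libraries are scaled. Relative to Vil1 on the FPKM scale, Myo7b stood at 0.0923, 0.0904 and 0.0885 in controls and at 0.0583, 0.0573 and 0.0574 in knockout libraries. These ratios were far apart compared with their spread (0.0904 ± 0.00190 against 0.0577 ± 0.000555, mean ± SD, n = 3). The ratios of Espn, Eps8 and Cdhr2 to Vil1 were also lower in every knockout than in every control library. Espn over Vil1 went from 0.0981 ± 0.0104 to 0.0730 ± 0.000375, and Cdhr2 over Vil1 from 0.528 ± 0.0577 to 0.392 ± 0.0148. The ratios of Pls1, Ezr, Myo1a, Cdhr5 and Ush1c to Vil1 overlapped between groups, with Myo1a over Vil1 between 0.502 and 0.542 in control and between 0.480 and 0.528 in knockout libraries. For Cdhr5 the groups did not overlap when counts were used in place of FPKM. So 4 of the 9 ratios to Vil1 separated the groups, where 26.6% of 13931 tested genes of any abundance had such a ratio to Vil1. For ratios to Vil1, the share among genes at least as abundant as Espn was not computed. No excess among the members is therefore read from these 4 ratios.

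Within the adhesion complex all 6 ratios separated the groups. Cdhr2 over Cdhr5 was 0.804, 0.723 and 0.947 in controls and 0.584, 0.517 and 0.569 in knockout libraries. Cdhr5 over Myo7b went from 7.10 ± 0.180 to 12.2 ± 0.811, and Ush1c over Myo7b from 1.19 ± 0.101 to 1.62 ± 0.0535. Cdhr2 over Myo7b changed least, from 5.85 ± 0.698 to 6.80 ± 0.285, with control 3 at 6.55 close to knockout 1 at 6.61. Among all 45 pairs of the 10 members, 25 (55.6%) did not overlap. The corresponding share was 43.0% among all pairs of genes at least as abundant as Espn. With 3 libraries against 3, an exact two-sided permutation test of a ratio cannot give a p below 0.10, so none was used as a test. The ratios share genes and were computed after the values of the members had been seen.

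Further parts of the complex were measured outside the chosen genes. Calml4, a light chain bound by myosin 7b, rose from 229 ± 24.8 to 311 ± 26.7 CPM (0.44 ± 0.12, adjusted p = 0.0414), opposite to Myo7b. Per length, Calml4 over Myo7b was 3.42 ± 0.382 in control and 6.94 ± 0.383 in knockout libraries (mean ± SD, n = 3), without overlap. The call of Calml4 did not survive leaving out control 3, knockout 1, knockout 2 or knockout 3 (adjusted p up to 0.136). Anks4b, the scaffold that joins harmonin to myosin 7b, was at 346 ± 34.3 and 326 ± 15.6 CPM and did not pass (-0.09 ± 0.12, adjusted p = 0.635). It was named for its place in the complex and not by the rule for other genes.

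**Figure D3:**
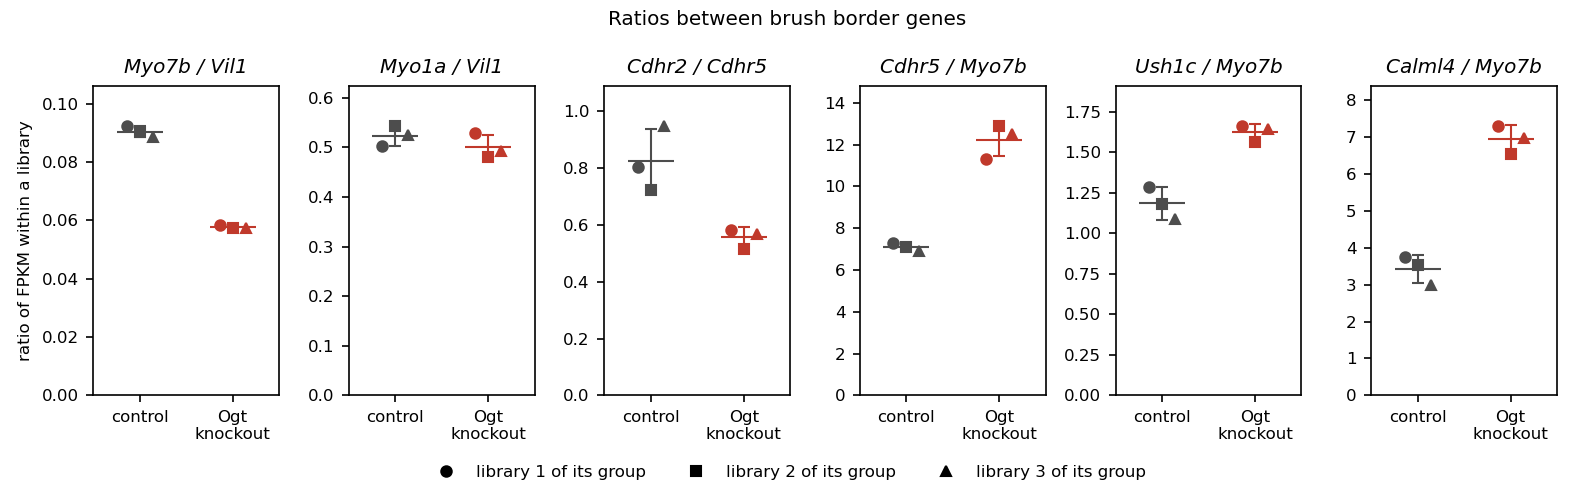
Ratio of FPKM of the 2 genes named above each panel (y axis from 0) in the 3 control and 3 Ogt knockout libraries, with 1 symbol for each library, bars for the mean and whiskers for the SD. Ratios with Myo7b and that of Cdhr2 to Cdhr5 are apart between groups, while Myo1a over Vil1 overlaps.

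By level per length (FPKM), the members spanned about an order of magnitude. Vil1 was highest in 5 libraries and second to Pls1 in control 3. Mean FPKM in control was 959 ± 116 for Vil1, 833 ± 263 for Pls1, 687 ± 189 for Ezr, 614 ± 55.7 for Cdhr5, 506 ± 76.1 for Cdhr2 and 503 ± 77.7 for Myo1a. Below these came Eps8 at 122 ± 10.3, Ush1c at 102 ± 7.14, Espn at 94.7 ± 20.1 and Myo7b at 86.5 ± 9.11 FPKM. Neighbours in this order differed by less than the larger of their SDs, except Cdhr5 and Cdhr2, Myo1a and Eps8, and Eps8 and Ush1c. In knockout libraries Cdhr5 (757 ± 121) stood further above Cdhr2 (418 ± 39.3), Myo1a (533 ± 44.8) passed above Cdhr2, and Myo7b was lowest at 61.6 ± 6.72 FPKM, the last place in all 3.

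The members were ordered much alike across the libraries of a group, and the share of other genes ordered so was not computed. Control 1 was lowest for all 10, and control 2 was highest for 7 and control 3 for the other 3. Among knockout libraries, knockout 2 was highest for 8 members and knockout 3 lowest for 8. The sum of enterocyte markers was also lowest among controls in control 1, and among knockouts highest in knockout 2 and lowest in knockout 3. The range within knockout libraries, with the highest 1.13 to 1.36 times the lowest, was narrower than within controls for 8 members, where it was 1.17 to 1.83 times. The median SD of log2 CPM over members was 0.23 in control and 0.16 in knockout libraries, close to the 0.22 and 0.18 over all tested genes.

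Digestive and transport genes of enterocytes, the cells that carry the brush border, did not keep the same proportion to its structural genes. Summed over the 10 microvillus genes, CPM were 11639, 16003 and 16138 in controls and 14146, 15955 and 12986 in knockout libraries. The 18 enterocyte markers, among them Apoa1, the most abundant, summed to 33947, 36717 and 31988 CPM in knockout libraries. Control 1, at 34751 CPM, lay among them, and controls 2 and 3 lay above. Of these 18 markers 5 fell and 0 rose, with a median of -0.67, where 9.37% of all tested genes were lower and 9.33% higher. The ratio of the 2 sums was 0.335, 0.309 and 0.305 in controls and 0.417, 0.435 and 0.406 in knockout libraries. It was higher in every knockout library also by FPKM (0.232 ± 0.0195 against 0.320 ± 0.00498) and without the apolipoproteins (0.462 ± 0.0996 against 0.650 ± 0.0307). Without the apolipoproteins control 1, at 0.577, lay closer to knockout 1, at 0.620, than to controls 2 and 3, at 0.408 and 0.401. How often sums over other genes separate the groups was not computed. Among pairs of single genes at least as abundant as Espn the share was 43.0%. Tuft cells also bear long microvilli with bundled actin, and their 14 markers summed to 151 to 163 CPM in control and 39.9 to 50.1 CPM in knockout libraries. Of the 12 tested, 10 fell, among them Rgs13, the most abundant. Villus tip markers summed to 1618 to 4233 CPM and to 1602 to 2132 CPM, and villus base markers to 5052 to 12370 CPM and to 9676 to 15485 CPM, in control and knockout libraries. Of the 8 villus tip markers 4 fell and 0 rose (median -0.93), and of the 8 villus base markers 0 passed (median 0.52). The part of these cell type differences in the values of the members was not tested.

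**Figure D4:**
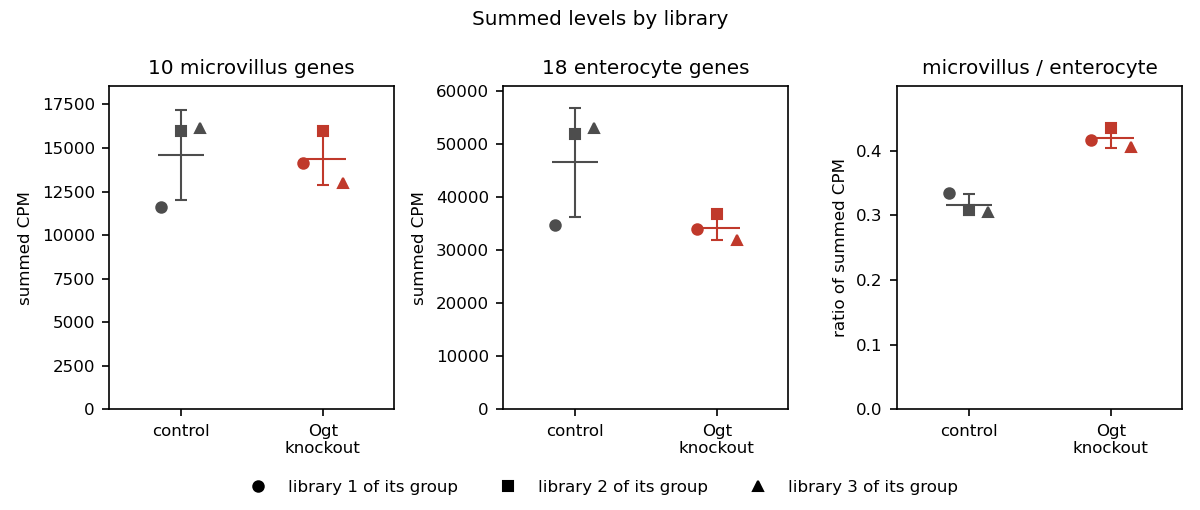
Summed CPM of the 10 microvillus genes, summed CPM of 18 enterocyte markers and the ratio of these sums (y axes from 0) in the 3 control and 3 Ogt knockout libraries, with 1 symbol for each library, bars for the mean and whiskers for the SD. The microvillus sums overlap, while the ratio lies between 0.305 and 0.335 in control and between 0.406 and 0.435 in knockout libraries.

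Other genes of the brush border were read from 6 lists. Of 23 tested genes of the adhesion complex, membrane and motors of microvilli, 1 rose and 2 fell (13.0%, median -0.12), below the 18.7% of all tested genes. Tmigd1, an immunoglobulin-domain adhesion protein of the brush border membrane and the most abundant gene of the list, fell from 2227 ± 410 to 1081 ± 157 CPM (-1.04 ± 0.19, adjusted p = 0.00964) and passed with each library left out in turn (adjusted p up to 0.0477). Myo1e, another class I myosin, fell (-0.42 ± 0.11, adjusted p = 0.0351), but its call was lost without control 1, control 3 or any knockout library (adjusted p up to 0.134), with library size alone and on the FPKM scale. Prom2 had too few counts to be tested. Among 15 tested homologues of the members 2 fell and 0 rose (median -0.23). Avil, the villin relative of tuft cells, fell from 11.6 ± 0.381 to 2.63 ± 0.242 CPM (-2.13 ± 0.18, adjusted p = 0.00136). Avil is also on the list of tuft cell markers. Svil, a larger relative, fell (-0.53 ± 0.14, adjusted p = 0.0384), without a call when control 3 or any knockout library was left out (adjusted p up to 0.129), with library size alone or on the FPKM scale without a filter. Eps8l3 (-0.30 ± 0.13), the most abundant homologue, did not pass. The plastins Pls3 and Lcp1 and the ezrin relatives Rdx and Msn did not pass either, and Cdh23, Cdhr3, Cdhr4, Espnl and Ush1g were too low to be tested.

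In the lists of ezrin kinases and polarity, actin and terminal web, and apical trafficking, 1 of 18, 2 of 26 and 1 of 15 tested genes passed, beside 18.7% of all tested genes. In the first, Rap2a, a small GTPase upstream of apical ezrin phosphorylation, fell from 31.6 ± 0.862 to 19.9 ± 2.11 CPM (-0.67 ± 0.12, adjusted p = 0.0107), and it did not pass without control 3 (adjusted p = 0.0541) or on the FPKM scale without a filter. Stk25 (-0.52 ± 0.19), Crb3 (-0.27 ± 0.12) and Cdc42 (0.05 ± 0.11) did not pass. Stk25 passed without knockout 1 (adjusted p = 0.0433) and with the replicate block. Of 26 actin and terminal web genes 2 rose and 0 fell (median 0.05). They were Myl12a, a regulatory light chain of non-muscle myosin (0.54 ± 0.11, adjusted p = 0.0138), and Cfl1, the filament-severing protein cofilin, from 685 ± 25.0 to 993 ± 97.6 CPM (0.54 ± 0.12, adjusted p = 0.0227). With 1 library left out, Cfl1 kept its call without control 1 and lost it without any of the other 5 (adjusted p up to 0.0931), and Myl12a lost it without knockout 2 (adjusted p = 0.0579). Tpm4 (0.38 ± 0.14) and the keratin Krt8 (0.11 ± 0.19) did not pass, nor did Actb (-0.07 ± 0.19) and Actg1 (0.15 ± 0.19), the actins of the core. Tpm4 passed without control 1 (adjusted p = 0.0153), with library size alone and on the filtered FPKM scale. Of 15 trafficking genes Stxbp2, whose loss causes microvillus inclusions in enterocytes, rose from 114 ± 4.78 to 156 ± 4.66 CPM (0.45 ± 0.09, adjusted p = 0.0155), with no call without knockout 2 or 3 (adjusted p up to 0.0621). Unc45a (0.34 ± 0.11), Rab11b (-0.40 ± 0.13) and Plac8 (0.09 ± 0.15) did not pass. Without control 1, Unc45a (adjusted p = 0.0418) and Rab11b (adjusted p = 0.0311) passed. Unc45a also passed with library size alone, and Rab11b with the replicate block.

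Of 18 tested transcription factors known to act on enterocyte genes, 7 fell and 0 rose (38.9%, median -0.45), beside 9.37% of all tested genes that were lower. The difference from other genes was not tested, and 5 of the 7 calls were lost when a single library was left out. Hnf4g, a nuclear receptor that maintains brush border genes together with Hnf4a, fell from 435 ± 30.8 to 250 ± 33.0 CPM (-0.80 ± 0.13, adjusted p = 0.00667), and Hnf4a, the most abundant of the list, stood at -0.27 ± 0.13 (adjusted p = 0.198). Srf, the factor that binds CArG boxes of cytoskeletal genes, fell as well (-0.53 ± 0.10, adjusted p = 0.0108). Srf lost its call without control 3 or knockout 3 (adjusted p up to 0.0537) and on the FPKM scale. Those that fell also included Cdx2 (-0.53 ± 0.11), Gata6 (-0.66 ± 0.13), Klf4 (-0.81 ± 0.19) and Klf5 (-0.52 ± 0.13), which were named after their values were seen. Each of these 4 lost its call without control 3, knockout 2 or knockout 3, and Klf4 and Klf5 also without control 2 (adjusted p up to 0.116). Klf4 also lost it with the replicate block, and Klf5 with library size alone and on the FPKM scale. Vil1, whose window above holds a CArG box, stood at 0.02 ± 0.17, and control of Vil1 by Srf was not tested.

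**Figure D5:**
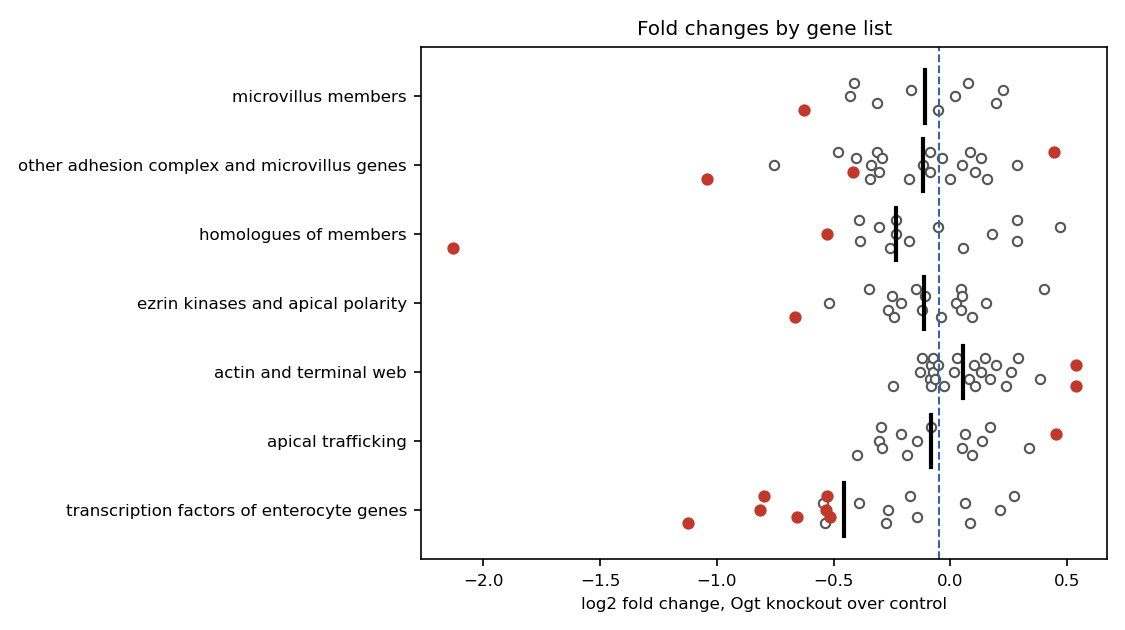
Log2 fold change (x axis, Ogt knockout over control) of the tested genes of the microvillus members and the 6 lists; filled points passed an adjusted p of 0.05, black bars are medians, and the dashed line is the median of all tested genes (-0.05). Medians lie between -0.23 and 0.05 apart from the transcription factors at -0.45, and 1 of 10 members is filled.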

How the data were processed

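Per the labels' protocols, Trizol was used for RNA and the NEBNext Ultra kit for the libraries. The submitters' processing notes name the builds GRCm39 and mm39; no aligner, counter or annotation release is given in the sources used here. Estimated counts and FPKM values for 22274 genes in 6 libraries were deposited, per the file headers, and between 7.68% and 8.09% of the deposited counts per library were not whole (tolerance 0.001). The lengths behind the deposited FPKM are not stated.

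Counts were rounded. Names came from GENCODE M21 by Ensembl ID (22219), then from the deposited table (43), and 12 IDs kept no name. Genes were kept by filterByExpr of edgeR 4.0.16 (minimum count 10, minimum total 15), scaled by TMM factors and compared by its quasi-likelihood test (robust) in R 4.3.3, with Benjamini-Hochberg adjustment over 14005 genes. SEs were taken from the F statistic. The fit was tested on simulated data. No 2 libraries of a group agreed within sampling noise (mean chi-square per gene at least 20.6). The 10 members, the 6 lists and the 17 marker lists were chosen with earlier results of these data known. The rule for named genes took, from each list, the 3 lowest adjusted p-values and the gene of highest mean FPKM, from each marker list the gene of highest mean FPKM, and Ogt and Olfm4; others named were chosen after their values were seen. Alternatives were DESeq2 1.42.0 and limma 3.58.1 voom, other scalings and filters, a replicate block, each library left out, and limma on log2(FPKM + 0.1), with 0.01 or 1 in place of 0.1. Promoter windows are RefSeq's, in GRCm38.p6. Of the list entries, Vamp7 was not analysed here. Some genes that the rule for named genes took are not reported here.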

Additional observations from a re-analysis of the deposited data

How the results depend on the processing

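Across 18 alternatives, Ezr, Cdhr5, Espn, Eps8, Cdhr2, Ush1c and Myo7b kept the sign of their difference. Myo7b passed under 14 of them, with estimates from -0.71 to -0.48, and failed when control 2, control 3, knockout 1 or knockout 3 was left out. Myo1a turned positive with library size alone (0.084) and on the FPKM scale (0.093 with each pseudocount and without a filter), and ran from -0.14 to 0.070 with 1 library left out. Vil1 ran from -0.074 to 0.11 and Pls1 from -0.074 to 0.24 in the same way. The number of lower members ranged from 0 to 3 with 1 library left out, and no alternative gave a higher member. Library size alone moved the median of all genes from -0.05 to 0.09, and log2(FPKM + 0.1) moved it to 0.12; the median of the 10 members went from -0.11 to 0.03 under both, so their fall or rise is relative to that shift. With library size alone 2045 genes were higher and 859 lower, against 1307 and 1312, and 7 genes of the 6 lists were higher against 4. On the FPKM scale 724, 717 and 738 genes were lower with pseudocounts of 0.1, 0.01 and 1, against 1906, 1891 and 1946 higher, and 7 list genes were higher in each. Without an FPKM filter 642 genes and 7 list genes were lower and 1637 genes higher. Leaving out 1 library gave 549 to 1933 higher and 461 to 1372 lower genes, and 0 to 9 higher and 4 to 14 lower list genes, against 12 lower. The cause was not tested. The labels do not say that libraries with equal replicate numbers share anything, so the main fit held no replicate block. Deviations of same-numbered libraries correlated at 0.30, 0.27 and 0.099. Each library correlated best with its own number, as a hint of pairing from the data. With the replicate block 1728 genes were higher and 1673 lower, and Myo7b stayed the only member called (-0.62, adjusted p = 0.0178). Each member had at least 1684 counts in every library.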

Other observations

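The deposited FPKM of Pls1 did not follow its counts by a fixed length. The length implied by counts over FPKM, relative to its mean over libraries, was 1.07, 1.08 and 0.88 in controls 1 to 3 and 1.03, 1.02 and 0.92 in knockouts 1 to 3. Control 3 and knockout 3 were thus the shortest, a split that does not follow the groups. This range of 22.7% was exceeded by 9.86% of the 8845 genes with at least 100 counts in every library, whose median range was 2.96%. For Cdhr5 the range was 3.35%, for Espn 1.91% and for Eps8 0.579%, with smaller ranges for the other 6 members. The small range of Cdhr5 did follow the groups, at 0.983, 0.985 and 0.9992 in controls 1 to 3 and 0.9999, 1.016 and 1.016 in knockouts 1 to 3. Control 3 and knockout 1 were close. Counts per gene do not show which transcripts of Pls1 or Cdhr5 these lengths stand for.

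Enteroendocrine markers summed to 88.6 to 122 CPM in control and 146 to 176 CPM in knockout libraries, and 1 of 8 rose. Summed CPM of the remaining marker lists overlapped between the groups. In control and knockout libraries they were 225 to 2409 and 1218 to 3137 for Paneth cells, 164 to 348 and 211 to 449 for stem cells, 281 to 547 and 473 to 670 for proliferating cells (1 of 8 called higher), 1461 to 2543 and 1623 to 2114 for myeloid cells, 454 to 1813 and 794 to 1550 for B and plasma cells, 33.1 to 77.1 and 60.5 to 71.9 for endothelial cells, and up to 40.7 and 24.6 for erythrocytes. Goblet cell markers summed to 4789 to 8338 CPM in knockout libraries, with 2 of 8 lower. Beside these counts, 9.33% of all tested genes were higher and 9.37% lower, and 39.8% had CPM groups that did not overlap.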
